A study of Mus musculus with 45 samples.

Results

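Acetylation of histone H3 at lysine 9 (H3K9ac) was followed in mouse hippocampus at 4 loci tied to the transgenes of the models studied: Prnp and Camk2a, as genes whose promoters drive such transgenes, and Mapt and Cdk5r1, as the mouse genes of tau and of the p25 precursor. The members were all deposited H3K9ac domains that overlap 4 fixed windows of the mm9 genome, 46 of 44165 domains in all. Prnp held 7 domains between 131.725 and 131.770 Mb of chromosome 2, Camk2a 13 between 61.075 and 61.155 Mb of chromosome 18, Mapt 20 between 104.085 and 104.200 Mb of chromosome 11, and Cdk5r1 6 between 80.280 and 80.305 Mb of chromosome 11. Domains are numbered here along the chromosome within each window. No mm9 annotation was used, so the windows carry the gene names by position and exons, introns and UTRs were not analysed here.

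H3K9ac marks active promoters and enhancers, and it is often spread widely over the start of genes that are strongly expressed in a tissue. Prnp codes the prion protein, a cell surface glycoprotein abundant in neurons, and its mouse promoter is often used to express transgenes in brain. Camk2a codes the alpha subunit of CaMKII, a kinase of forebrain excitatory neurons, and its promoter drives the transactivator in CK mice. Mapt codes tau, the microtubule-binding protein of axons, and Cdk5r1 codes p35, the activator of the kinase Cdk5 from which the fragment p25 is cleaved.

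H3K9ac was measured by chromatin immunoprecipitation and sequencing in 23 libraries of 8 groups, with input DNA libraries not analysed here. In the tau series, Tau (MAPT P301S) mice carry mutant human tau, and 3 libraries of 11-month males and 2 of 6-month females were compared with 3 wt (control) libraries of the same sex at each age. Age and sex thus change together between those comparisons. In the CK-p25 series, all mice were females, and CK-p25 was compared with CK (control) at 3.5 months, which is 2 weeks after p25 was induced, and at 4.5 months, which is 6 weeks after, with 3 libraries per group. The labels name neither the tau line nor its promoter, and they do not spell out the CK alleles: as background, CK and CK-p25 mice both carry the Camk2a driver and only CK-p25 mice the p25 transgene that answers to it. The labels do not state that each library is a separate animal, so p-values measure the spread between these libraries. Libraries of the tau series held 4097974 to 6181925 reads in domains, and those of the CK-p25 series 996369 to 4133003.

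A read from a transgene copy and a read from the gene's own locus cannot be told apart in these counts where the sequence is shared, and copy number was not measured. The domains are a common set called on the study's own libraries, so a domain may have entered the set through the group in which it is high; which libraries gave rise to each one is not stated. Levels are counts per 1000000 reads in domains (CPM), TMM-normalised within each series, and a change is a log2 fold change with its standard error (SE) and an adjusted p from edgeR's quasi-likelihood test over all domains tested. All 46 members passed the filter on low counts in the tau series and 38 in the CK-p25 series, where Prnp kept 4 of 7, Camk2a 12 of 13, Mapt 17 of 20 and Cdk5r1 5 of 6.

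RefSeq's table for GRCm38.p6 matched 1 of the 4 genes, Prnp, the window with the largest differences, and its promoter is shown for that. The table gives the 250 bases before and 50 bases after its start, at chr2:131909678-131909977 on the plus strand. This build differs from that of the domains, so the sequence was not placed within any domain.
Prnp: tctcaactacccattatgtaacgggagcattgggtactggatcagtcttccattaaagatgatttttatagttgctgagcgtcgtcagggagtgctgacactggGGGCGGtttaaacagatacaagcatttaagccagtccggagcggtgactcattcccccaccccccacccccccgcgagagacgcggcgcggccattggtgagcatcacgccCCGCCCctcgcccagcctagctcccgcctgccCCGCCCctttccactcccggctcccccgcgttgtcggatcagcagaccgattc
Capitals mark GGGCGG, the GC box, on either strand: 1 match lay on the strand shown and 2 on the reverse strand. The motif is in 35.7% of 32851 promoters of the same length. CCAAT had 2 matches, both on the reverse strand, and is in 37.4% of those promoters, and TATAAA had 1 match, also on the reverse strand, and is in 13.6%. The Prnp promoter holds 60% G and C against a median of 52.67% over all promoters, and 22 CpG dinucleotides against a median of 7.

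One library stood apart at Prnp. The library labelled Tau 6 months replicate 1 held 544 of its 5098585 reads in Prnp domain 4, and the one labelled replicate 2 held 1916 of 4701211. Its level there was 107 CPM, within the 105 to 120 of the 3 wt libraries of that age, against 408 CPM in replicate 2 and 356 to 411 in the 3 Tau libraries of 11 months. In Prnp domain 1 the counts were 4 reads in replicate 1 (0.790 CPM, 95% Poisson interval 0.215 to 2.02) and 213 in replicate 2 (45.3 CPM, interval 39.4 to 51.8), intervals that cover counting error only. Of 26460 domains with at least 50 reads in this pair, 6 differed at least 4-fold, and 4 of them were Prnp domains 1, 2, 3 and 7. Each of the 21 other pairs of libraries within a group had 0 to 8 such domains, and none of those was a member. The library labelled Tau 6 months replicate 1 thus lacked at Prnp what all 4 other Tau libraries showed, and results that rest on it are given with and without it.

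**Figure D1:**
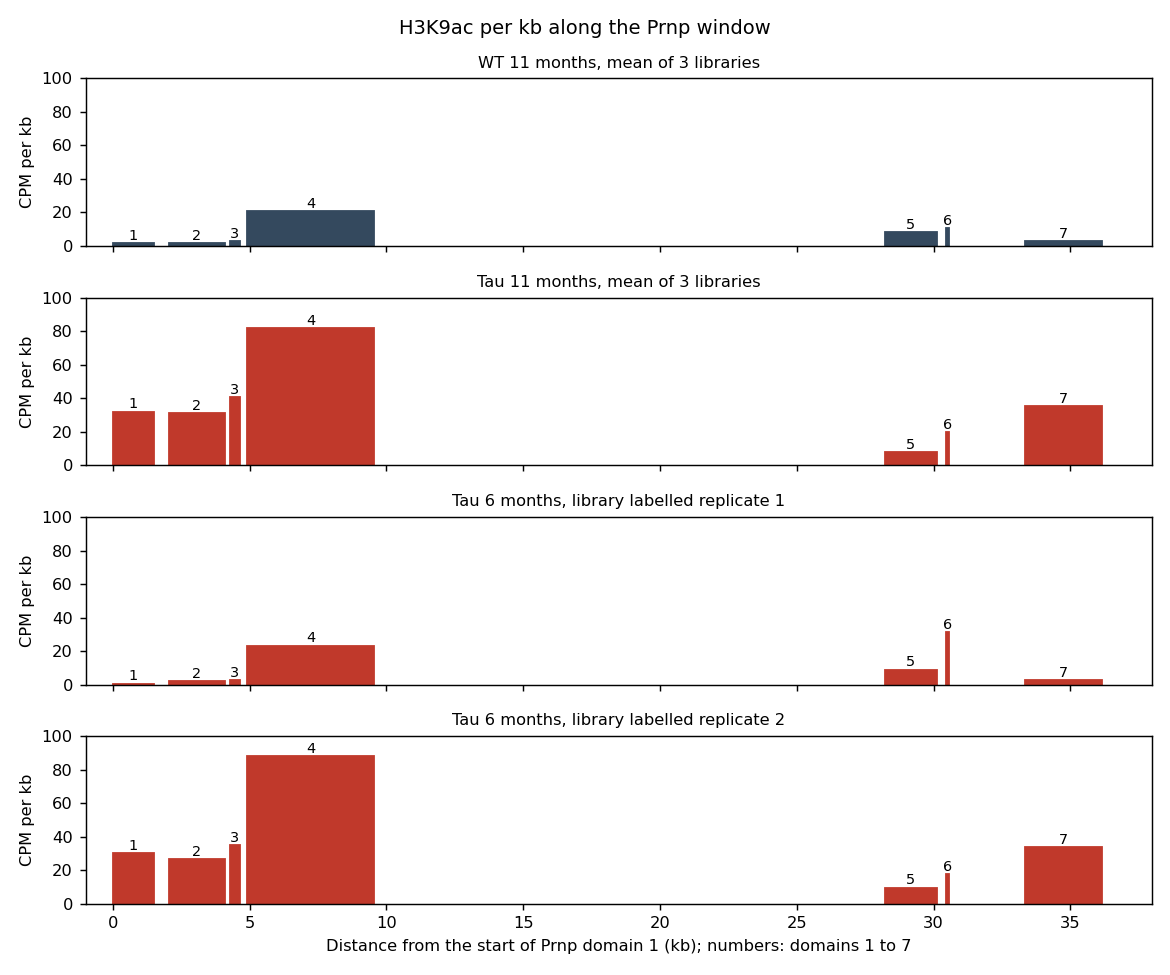
H3K9ac in CPM per kb (height) over the 7 domains of the Prnp window (width to scale), by distance in kb from the start of domain 1, for the mean of 3 wt and of 3 Tau libraries of 11 months and for each Tau library of 6 months. Domains 1, 2, 3, 4 and 7 stood higher in Tau at 11 months and in the library labelled replicate 2 at 6 months, while the library labelled replicate 1 differed from the wt mean of its age by -1.05 to 0.53 CPM per kb in those domains.

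At Prnp, 5 of 7 domains rose in Tau mice of 11 months and none fell. Over all domains tested, 4.40% were called higher in that comparison and 7.56% lower, 12% in all. The median log2 change of the 7 Prnp domains was 3.70, beside 0.01 over all domains. Ranked by fold over the 44105 domains tested, Prnp domains 1, 2, 3 and 7 took the first 4 places. These 4 were low in wt at 11 months (1.64 to 2.81 CPM per kb) and may have entered the set through Tau libraries. Neither their ranks nor the count of calls can be told apart from that choice of domains.

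Prnp domain 4, at chr2:131734485-131739117, is the strongest of the window and held 69.3% of its summed mean CPM. Its levels at 11 months were 372, 411 and 356 CPM in the Tau libraries and 94.9, 100.2 and 93.3 in wt. All Tau libraries lay far above all wt libraries, by a log2 change of 1.98 (SE 0.42, adjusted p = 0.0212). The library labelled Tau 6 months replicate 1 is not in this comparison but shares its estimate of the spread, and without it the change was 1.99 with an SE of 0.06 and an adjusted p of 2.1e-38.

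Before domain 4 in coordinate lie 3 domains that were low in wt. Prnp domain 1 (chr2:131729571-131731073) held 44.3, 51.4 and 48.8 CPM in Tau at 11 months and 2.47, 2.33 and 2.60 in wt, a log2 change of 4.26 (SE 0.95, adjusted p = 0.0274). Prnp domain 2 (chr2:131731608-131733660) held 53.8, 69.1 and 68.8 CPM in Tau and 4.12, 2.92 and 3.74 in wt, a log2 change of 4.13 (SE 0.78, adjusted p = 0.0126). Prnp domain 3 (chr2:131733848-131734219) held 14.1, 14.1 and 17.1 CPM in Tau and 1.15, 0.194 and 1.79 in wt, a log2 change of 3.76 (SE 0.83, adjusted p = 0.0252). In each of these every Tau library lay far above every wt library. When the library labelled Tau 6 months replicate 1 was left out, their adjusted p-values were 9.06e-31, 1.55e-32 and 1.39e-14, at log2 changes of 4.27, 4.13 and 3.77.

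The far side of the window was not uniform. Prnp domain 7 (chr2:131762926-131765732) held 91.3, 100.6 and 105 CPM in Tau at 11 months and 7.08, 7.002 and 8.62 in wt, a log2 change of 3.70 (SE 0.76, adjusted p = 0.0187, and 1.68e-37 without the library labelled Tau 6 months replicate 1). Prnp domain 5 (chr2:131757794-131759682) lies between domains 4 and 7 and held 15.1, 14.5 and 14.5 CPM in Tau against 14.3, 13.2 and 18.4 in wt. Its groups overlapped, with a log2 change of -0.06 (SE 0.15, adjusted p = 0.861). Prnp domain 6, of 108 bases, had 1.66 to 2.91 CPM in Tau and 0.972 to 1.32 in wt, which do not overlap, and its log2 change of 0.84 (SE 0.47, adjusted p = 0.273) did not pass the test.

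Put on a common length, the Tau minus wt difference at 11 months was 30.4, 29.4 and 37.7 CPM per kb in Prnp domains 1, 2 and 3, 61.2 in domain 4 and 32.6 in domain 7. It was -0.30 in domain 5 and 9.14 in the short domain 6. Domains 1, 2, 3 and 7 thus differed by a like amount per kb although domain 7 begins 33355 bases from the start of domain 1, and a gap of 18676 bases with no domain separates domains 4 and 5. In the library labelled Tau 6 months replicate 2, the difference from the wt mean of that age was 28.6, 24.9, 31.9, 64.0, 0.85, 0.19 and 30.5 CPM per kb in domains 1 to 7, in that order. In the library labelled replicate 1 the differences were -1.05, 0.53, -0.35, -0.82, 0.05, 13.5 and -0.80, and the one large value is that of domain 6, where it held 17 reads.

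Next to the window no domain was called. The nearest domain before it, 10712 bases from Prnp domain 1, had a log2 change of 0.26 (SE 0.24, adjusted p = 0.567) at 11 months, and the nearest after it, 15353 bases from Prnp domain 7, had 0.85 (SE 0.35, adjusted p = 0.111). Of 89 domains within 1000000 bases on either side, 5 were higher and 7 lower, beside 4.40% and 7.56% of all domains, with a median log2 change of 0.05. The window's summed CPM was 34.8% ± 2.03 (SD, n = 3) of that of its flanks in Tau and 7.0% ± 0.25 (SD, n = 3) in wt at 11 months. At 6 months it was 7.74% in the library labelled Tau replicate 1, 35.1% in replicate 2 and 8.13% ± 0.39 (SD, n = 3) in wt, and the 4 group means of the CK-p25 series were 7.98% to 8.69%.

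**Figure D2:**
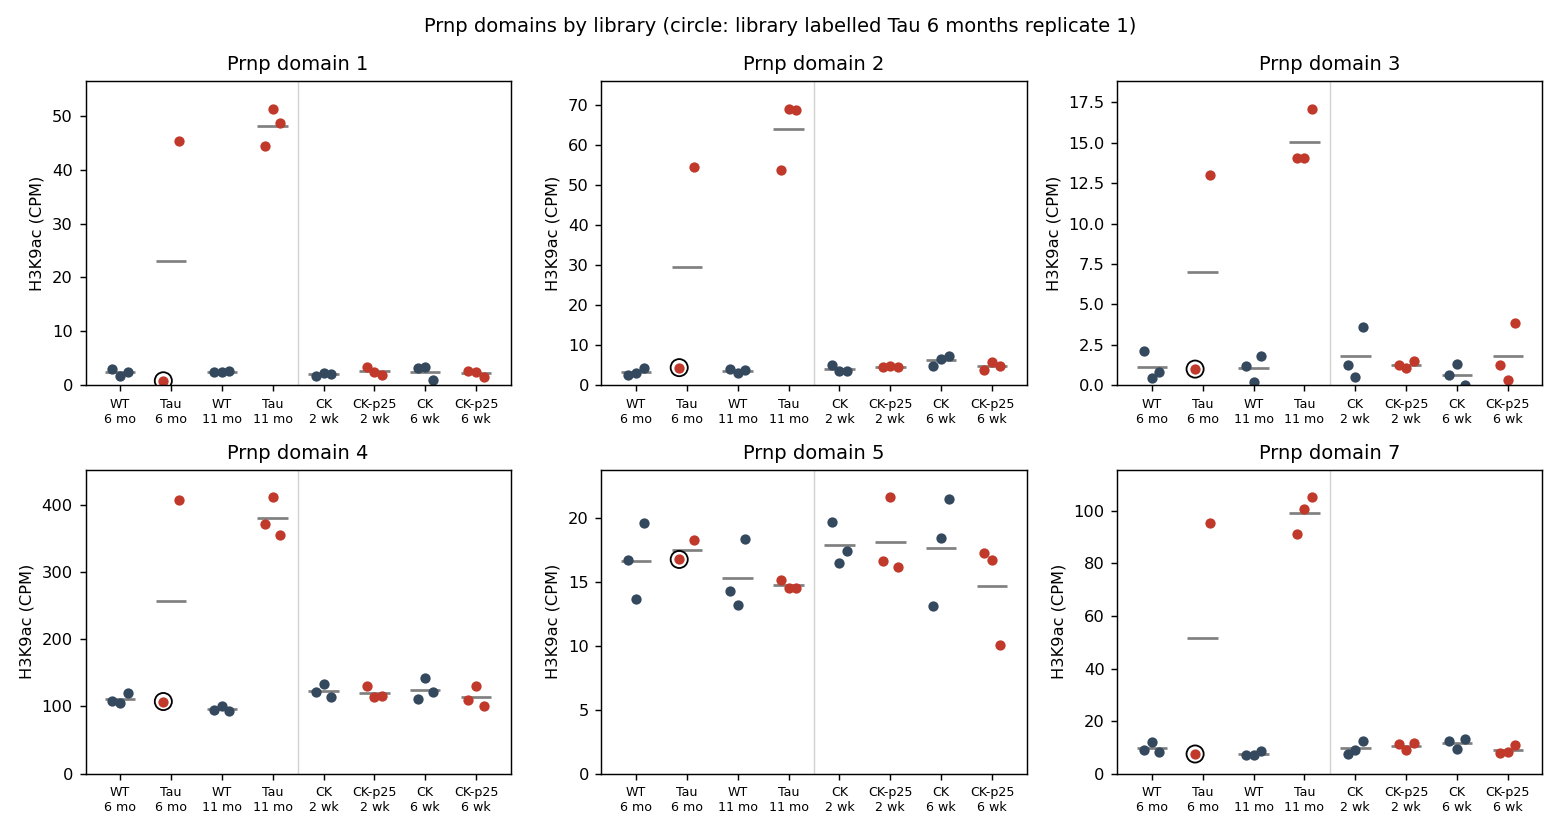
H3K9ac in CPM (vertical axis, from 0) of 6 Prnp domains in each library by group, tau series left and CK-p25 series right of the line, with points for libraries, bars for group means and a circle around the library labelled Tau 6 months replicate 1. In domains 1, 2, 3, 4 and 7 the 4 other Tau libraries stand above all other libraries, and in domain 5 they do not.

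The 11-month calls at Prnp depended on the spread that the Tau libraries of 6 months add to the shared estimate. With the library labelled Tau 6 months replicate 1 kept, leaving out any 1 of the 6 libraries of 11 months moved the adjusted p of the 5 domains to between 0.0299 and 0.0933: the call was lost in all 6 cases for Prnp domain 1, in 5 each for domains 3 and 4, in 4 for domain 7 and in 2 for domain 2, with log2 changes of 1.92 to 4.36. In a fit of the 11-month libraries alone, the 5 changes were 1.99 to 4.27, with adjusted p-values of 2.43e-12 for domain 3 and 6.68e-28 for domains 4 and 7. The labels give each library a cross correlation, a measure of enrichment, which was 0.206 to 0.257 in Tau and 0.296 to 0.342 in wt at 11 months, without overlap. With it as a covariate the 5 Prnp changes were 1.26 to 2.91 with adjusted p-values of 0.575 to 0.682, in a fit that kept the library labelled Tau 6 months replicate 1.

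At 6 months, no Prnp domain passed the test with both Tau libraries, and 0 of 44105 domains did. The log2 changes of Prnp domains 1, 2, 3, 4 and 7 were 3.23, 3.12, 2.58, 1.20 and 2.37, with SEs of 0.47 to 1.25. In edgeR these 5 were the members with an unadjusted p under 0.05, and the DESeq2 Wald test also called 0 members. The share of all domains at that unadjusted cut is not given here or below, so counts of members at it are a description. Without the library labelled replicate 1, the log2 changes of the same 5 domains were 4.25, 4.05, 3.52, 1.88 and 3.30. They come from a single Tau library that is assumed to vary like the others. The edgeR test then called 8 domains in the whole genome, 0.0181% of those tested, 0.0159% higher and 0.00227% lower. The 3 outside Prnp were chr4:116871820-116872389 (log2 change 2.88), chr14:9137412-9143244 (0.48) and chr17:34114612-34116332 (-0.90). The library labelled replicate 1 was singled out for its low levels at Prnp, so the Prnp calls of this fit follow from that choice. They are no test of Prnp at 6 months. Without replicate 2 instead, the changes of Prnp domains 1, 2, 3, 4 and 7 were -1.56, 0.40, -0.18, -0.05 and -0.37 and none was called.

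The tau effect averaged over both ages was called higher in 4 Prnp domains, 1, 2, 4 and 7, with log2 changes of 3.75, 3.62, 1.59 and 3.04, where 4.57% of all domains were called in either direction, 1.07% higher and 3.50% lower. It was called lower in Camk2a domain 6 (-0.38, adjusted p = 1.04e-05) and Cdk5r1 domain 4 (-0.33, adjusted p = 0.00183). With the library labelled Tau 6 months replicate 1 left out, 5 Prnp domains were higher and the same 2 members lower, where 3.72% were called in all, 0.890% higher and 2.83% lower. The Prnp count of that fit rests in part on leaving out the library that lacked the rise. Whether the rise differed between the ages cannot be decided for the same reason, and rests on a single 6-month library. With both Tau libraries of 6 months, the 11-month minus 6-month difference was 0.78 to 1.32 in Prnp domains 1, 2, 3, 4 and 7. The SEs were 0.64 to 2.00 and none was called. Without replicate 1, the difference was 0.02 to 0.41 in these 5 domains. In Prnp domain 4 that difference was 0.11 (SE 0.10), in Prnp domain 7 it was 0.41 (SE 0.21).

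In CK-p25 mice no Prnp domain was called. Of the 4 domains tested, edgeR called 0 at 2 weeks and 0 at 6 weeks, where 2.12% and 2.65% of all domains were called. At such shares, 0 of 4 is no result about Prnp. In edgeR 0 had an unadjusted p under 0.05 at both times, and DESeq2 called none. Prnp domain 4 held 122, 133 and 114 CPM in CK and 131, 114 and 115 in CK-p25 at 2 weeks, with overlap and a log2 change of -0.05 (SE 0.09, adjusted p = 0.923). At 6 weeks it held 111, 142 and 122 CPM in CK and 109.7, 131 and 101.2 in CK-p25, again with overlap, at -0.09 (SE 0.10, adjusted p = 0.776). Ordered by mean, Prnp domain 4 was highest in Tau at 11 months (380 CPM), then Tau at 6 months (258 over its 2 unlike libraries), CK at 6 weeks (125), CK at 2 weeks (123), CK-p25 at 2 weeks (120), CK-p25 at 6 weeks (114), wt at 6 months (111) and wt at 11 months (96.1). Tau at 6 months spanned 107 to 408 CPM and so overlapped both its neighbours in this order. From CK at 6 weeks down to wt at 6 months each group's libraries overlapped those of the next, and wt at 6 months did not overlap wt at 11 months. The scaling and the antibody lot differ between the 2 series, so an order across them is a description.

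Camk2a was the window with the most members that fell. In Tau mice of 11 months, 4 of 13 domains were lower and none higher, where 7.56% of all domains were called lower, and the median log2 change of the 13 was -0.39. At 6 months 0 of 13 were called, 0 had an unadjusted p under 0.05 in edgeR, and the median was 0.16. In CK-p25 mice 3 of 12 were lower at each time, where 0.613% of all domains were called lower at 2 weeks (2.12% in either direction) and 1.33% at 6 weeks (2.65% in either direction). In bulk tissue, fewer nuclei of a cell type and less acetylation per nucleus cannot be told apart.

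Camk2a domain 2 (chr18:61081121-61092219), the widest member at 11099 bases, was also the strongest of the window with 52.0% of its summed mean CPM. Its levels were 116, 137 and 100.3 CPM in Tau at 11 months against 209, 213 and 173 in wt, a log2 change of -0.76 (SE 0.13, adjusted p = 0.00461). Every Tau library lay below every wt library, while at 6 months the levels of 213 and 202 in Tau fell inside the 179 to 224 of wt. At 2 weeks the domain held 328, 306 and 313 CPM in CK and 272, 228 and 212 in CK-p25, a log2 change of -0.40 (SE 0.07, adjusted p = 7.45e-05). At 6 weeks it held 267, 286 and 319 CPM in CK and 201, 228 and 192 in CK-p25, a log2 change of -0.46 (SE 0.08, adjusted p = 4.33e-05). The groups did not overlap at either time.

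Camk2a domain 6 (chr18:61099951-61108137) had the smallest adjusted p of all members at 11 months with all libraries in the fit. It held 37.96, 44.8 and 38.8 CPM in Tau against 73.6, 85.4 and 69.9 in wt, a log2 change of -0.92 (SE 0.08, adjusted p = 1.78e-13). It is also the one member still called with cross correlation as a covariate, at -1.05 (adjusted p = 0.000202). At 6 months its levels of 79.0 and 72.8 CPM in Tau lay above the 60.2 to 72.0 of wt, with a log2 change of 0.16 (SE 0.09, adjusted p = 1). In CK-p25 it was 55.6, 75.7 and 45.6 CPM against 92.5, 73.7 and 109 in CK at 6 weeks, a log2 change of -0.57 (SE 0.12, adjusted p = 0.0042), with one CK-p25 library inside the CK range. This call was lost without CK at 6 weeks replicate 1 (-0.52, adjusted p = 0.0823) and without CK-p25 at 6 weeks replicate 1 (-0.47, adjusted p = 0.0844). At 2 weeks its log2 change of -0.26 (adjusted p = 0.29) did not pass.

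Camk2a domain 4 (chr18:61094282-61097740) was the member that was lower in all 3 of Tau at 11 months, CK-p25 at 2 weeks and CK-p25 at 6 weeks together with domain 2. Its levels at 11 months were 21.7, 30.8 and 17.3 CPM in Tau and 40.0, 31.3 and 30.7 in wt, so 1 Tau library was level with 2 wt libraries, at a log2 change of -0.58 (SE 0.14, adjusted p = 0.00233). In CK-p25 at 6 weeks it held 35.1, 34.8 and 37.9 CPM against 56.3, 57.3 and 80.0 in CK, a log2 change of -0.79 (SE 0.14, adjusted p = 2.69e-05). At 2 weeks the levels were 44.8, 43.8 and 30.1 CPM against 52.4, 58.1 and 55.4, and the log2 change of -0.46 (SE 0.12, adjusted p = 0.0129) was no longer called without CK at 2 weeks replicate 2 (adjusted p = 0.182) or CK-p25 at 2 weeks replicate 3 (0.225). Camk2a domain 3 (chr18:61092649-61094134) held 5.84, 10.9 and 5.34 CPM in Tau and 13.01, 12.4 and 8.62 in wt at 11 months, with overlap, and fell in Tau at 11 months, by a log2 change of -0.67 (SE 0.21, adjusted p = 0.0251). That call was lost when Tau replicate 1 or 3 or wt replicate 1 or 2 of 11 months was left out, with adjusted p-values of 0.116 to 0.195.

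With cross correlation as a covariate, the 11-month changes of Camk2a domains 2, 3 and 4 were -0.71, -0.84 and -0.37 (adjusted p = 0.437, 0.485 and 0.693) and were no longer called. The libraries of 6 months, with cross correlations of 0.231 to 0.254, held 179 to 224 CPM in Camk2a domain 2, above all Tau libraries of 11 months. Those ages differ in sex too, and at 11 months cross correlation goes with genotype. The part of enrichment in the Camk2a changes was not tested. When the library labelled Tau 6 months replicate 1 was left out, Camk2a domains 2, 3, 4 and 6 were all still called, at -0.76, -0.66, -0.58 and -0.91 (adjusted p = 0.0111, 0.0323, 0.00454 and 1.1e-12).

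**Figure D3:**
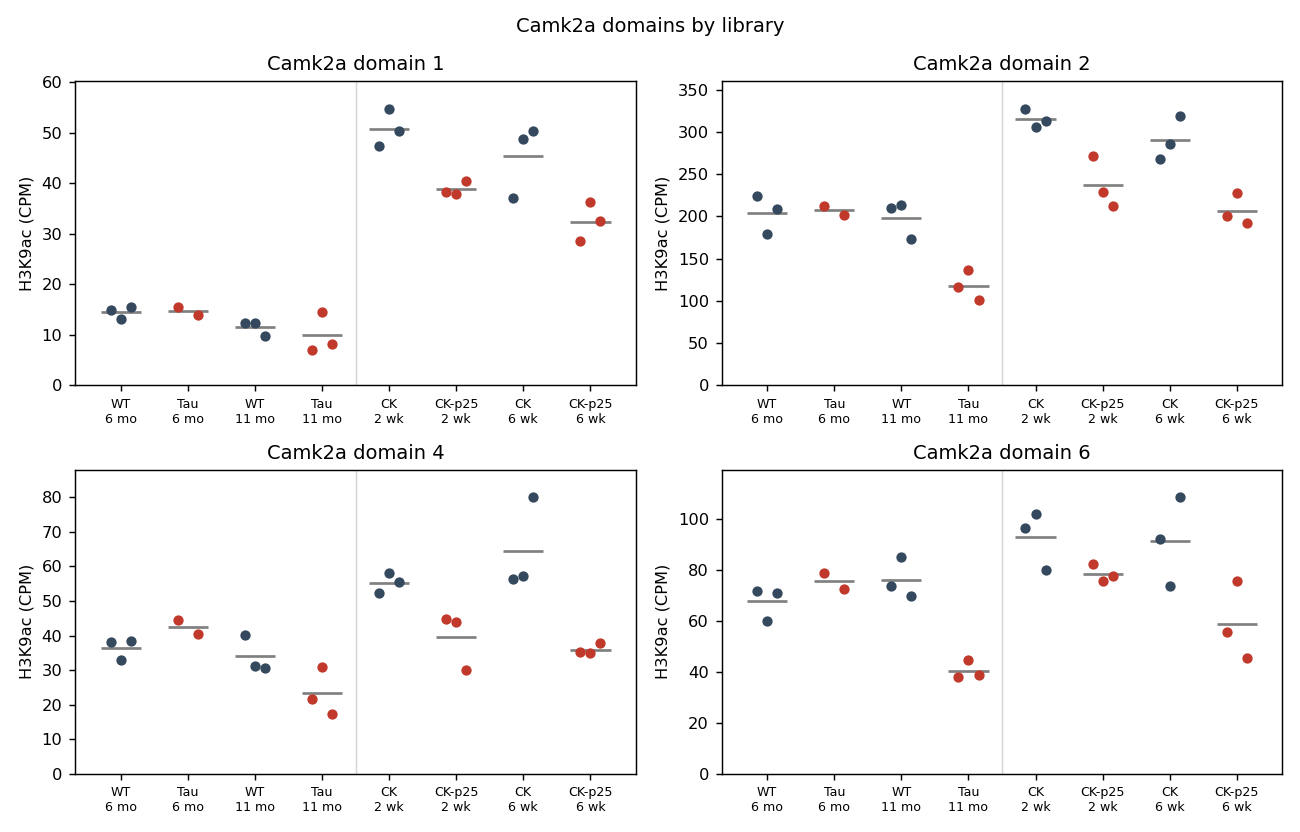
H3K9ac in CPM (vertical axis, from 0) of Camk2a domains 1, 2, 4 and 6 in each library by group, with bars for group means and the tau series left of the line. Tau libraries of 11 months lie low in domains 2 and 6, CK-p25 lies below CK in domain 2, and domain 1 is high in all CK and CK-p25 libraries.

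Camk2a domain 1 (chr18:61077456-61079950), the first of the window, set the 2 series apart. It held 37.1 to 54.7 CPM in the 6 CK libraries (mean 48.1) and 9.75 to 15.4 in the 6 wt libraries (mean 12.9), a ratio of means of 3.72. No library of the tau series exceeded 15.4 CPM, and none of the 6 CK-p25 libraries was under 28.5. Among 19273 domains with a mean of at least 10 CPM in the CK or in the wt libraries, this CK to wt ratio ranked 3, where the median ratio was 0.992. Its neighbours had smaller ratios of 1.51 in domain 2, 1.55 in domain 3, 1.70 in domain 4 and 1.28 in domain 6. These ranked 238, 189, 81 and 1102 of the same 19273. Domain 8 had a ratio of 1.40 and ranked 479, so a high ratio was not confined to domain 1. Domain 1 made up 7.98% to 8.59% of the window's summed CPM as group means in the CK-p25 series, with and without p25, and 3.03% to 4.06% in the tau series. Scaled over all 23 libraries together, the CK to wt ratio of domain 1 was 3.71. Antibody lot, age and mouse line differ between the series. The wt libraries of 11 months are of males, while all CK mice were females. Cross correlation was 0.064 to 0.179 in CK and 0.242 to 0.342 in wt, and every CK library held fewer reads in domains than any wt library. These differences cannot be told apart here, so no test was made.

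Within the CK-p25 series, Camk2a domain 1 was lower with p25. It held 47.4, 54.7 and 50.3 CPM in CK and 38.2, 37.8 and 40.4 in CK-p25 at 2 weeks, a log2 change of -0.41 (SE 0.12, adjusted p = 0.0467). At 6 weeks it held 37.1, 48.7 and 50.2 CPM in CK and 28.5, 36.2 and 32.5 in CK-p25, and its log2 change of -0.43 (SE 0.15, adjusted p = 0.104) did not pass. The groups did not overlap at either time, but the 2-week call was lost when any of CK replicates 2 and 3 or CK-p25 replicates 1, 2 and 3 was left out, with adjusted p-values of 0.0698 to 0.409. Averaged over both times, 4 of 12 Camk2a domains were lower, namely 1, 2, 4 and 6, where 2.75% of all domains were called lower, 3.20% higher and 5.95% in all. No member was called in edgeR's test of the difference between 6 and 2 weeks, and none had an unadjusted p under 0.05 there (DESeq2 also called 0, and edgeR called 0.00524% of all domains), with differences of -0.06 (SE 0.11) in Camk2a domain 2 and -0.33 (SE 0.18) in Camk2a domain 4.

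Of 108 domains in the flanks of 1000000 bases around the Camk2a window, 5 were higher and 7 lower in Tau at 11 months, beside 4.40% and 7.56% of all domains, with a median log2 change of 0.06, and one of the lower ones was the next domain after the window (chr18:61171544-61174206, -0.55, SE 0.10, adjusted p = 1.92e-05). The window's summed CPM was 12.5% ± 1.79 (SD, n = 3) of its flanks in Tau and 19.4% ± 1.49 (SD, n = 3) in wt at 11 months. It was 29.3% ± 0.66 in CK and 23.6% ± 2.18 in CK-p25 at 2 weeks, and 29.2% ± 2.97 and 20.5% ± 1.73 at 6 weeks (SD, n = 3 each). Over the 8 groups, Camk2a domain 2 was highest in CK at 2 weeks (316 CPM) and lowest in Tau at 11 months (118 CPM). That lowest group was the only one whose libraries did not overlap those of the next in order.

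Mapt, the mouse gene for tau itself, had 1 called member in 1 comparison. Mapt domain 1 (chr11:104091533-104098144) held 59.8% of the summed mean CPM of the window. Its levels were 204, 181 and 174 CPM in Tau at 11 months and 211, 210 and 204 in wt, a log2 change of -0.16 (SE 0.05, adjusted p = 0.0442), and it was the 1 of 20 Mapt members called, where 7.56% of all domains were called lower and 12% in all. The call was lost without any one of Tau replicates 2 and 3 and wt replicates 1, 2 and 3 of 11 months (adjusted p-values of 0.0502 to 0.308) and without the library labelled Tau 6 months replicate 1 (0.0653), and with cross correlation as a covariate the change was 0.03. At 6 months Tau held 198 and 196 CPM against 205, 212 and 193 in wt, at -0.04 (SE 0.06).

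In CK-p25 mice 0 of 17 Mapt domains were called at either time by edgeR or DESeq2. In edgeR 2.12% of all domains were called at 2 weeks and 2.65% at 6 weeks. At such shares, 0 of 17 is no result about Mapt. At an unadjusted p under 0.05 in edgeR there was 1 at 2 weeks and 0 at 6 weeks. The 1 was Mapt domain 1 with 187, 189 and 173 CPM in CK-p25 against 199.9, 215 and 195 in CK at 2 weeks (log2 change -0.15, adjusted p = 0.438). The share of all domains at that unadjusted cut is not given here. Every one of the 8 group means of Mapt domain 1 lay between 183 and 208 CPM, and each group overlapped the next in order, across both series. The 19 other Mapt domains were weak, at mean levels of 1.80 to 21.8 CPM. The median log2 changes of the Mapt members were 0.06 in Tau at 11 months, 0.07 at 6 months, 0.05 in CK-p25 at 2 weeks and 0.04 at 6 weeks. Just outside the window, a weak domain at chr11:104082456-104082670 was higher in Tau at 11 months, with 3.47, 4.12 and 3.50 CPM against 0.988, 1.36 and 1.14 in wt (log2 change 1.65, SE 0.41, adjusted p = 0.00278), and it is no member.

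Cdk5r1, from which p25 derives, had no member called higher in CK-p25 mice. Cdk5r1 domain 4 (chr11:80290537-80299833) held 88.5% of the window's summed mean CPM. At 2 weeks it held 264, 262 and 292 CPM in CK and 269, 238 and 234 in CK-p25, with overlap and a log2 change of -0.13 (SE 0.07, adjusted p = 0.526). At 6 weeks it held 245, 265 and 271 CPM in CK and 190, 221 and 212 in CK-p25, without overlap and at -0.32 (SE 0.08, adjusted p = 0.00734). The 6-week call was lost without CK at 6 weeks replicate 2 (adjusted p = 0.0657) or CK-p25 at 6 weeks replicate 1 (0.192). Of 5 Cdk5r1 domains tested, 0 were called at 2 weeks by edgeR or DESeq2, where edgeR called 2.12% of all domains. At 6 weeks 1 was lower, where 1.33% of all domains were. The 1 with an unadjusted p under 0.05 at 2 weeks, named after its value was seen, was Cdk5r1 domain 1, with 3.43, 1.83 and 2.57 CPM in CK-p25 against 3.77, 6.45 and 2.56 in CK (log2 change -0.81, SE 0.41, adjusted p = 0.47). The share of all domains at that unadjusted cut is not given here.

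In Tau mice of 11 months Cdk5r1 domain 4 was lower as well. It held 174, 208 and 155 CPM in Tau against 287, 284 and 251 in wt, a log2 change of -0.62 (SE 0.08, adjusted p = 1.56e-05), and no Tau library reached the lowest wt library. The call held when each library of 11 months was left out in turn, with log2 changes of -0.74 to -0.53, and was lost with cross correlation as a covariate (-0.57, adjusted p = 0.189). The smaller Cdk5r1 domain 5 (chr11:80299993-80300389) and Cdk5r1 domain 6 (chr11:80302611-80303902) were also called lower, at log2 changes of -0.85 (SE 0.29, adjusted p = 0.0451) and -0.46 (SE 0.16, adjusted p = 0.0466), so that 3 of 6 were, where 7.56% of all domains were. Leaving out the library labelled Tau 6 months replicate 1, their adjusted p-values were 0.0504 and 0.0537, and that of domain 4 was 1.19e-05. Over 7 fits that each left out 1 library, that fit included, the call was lost in 6 for domain 5 and in 5 for domain 6. The count of 3 of 6 thus rests in part on calls near the threshold. At 6 months domain 4 held 263 and 236 CPM in Tau and 264, 255 and 248 in wt, at -0.04 (SE 0.09).

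**Figure D4:**
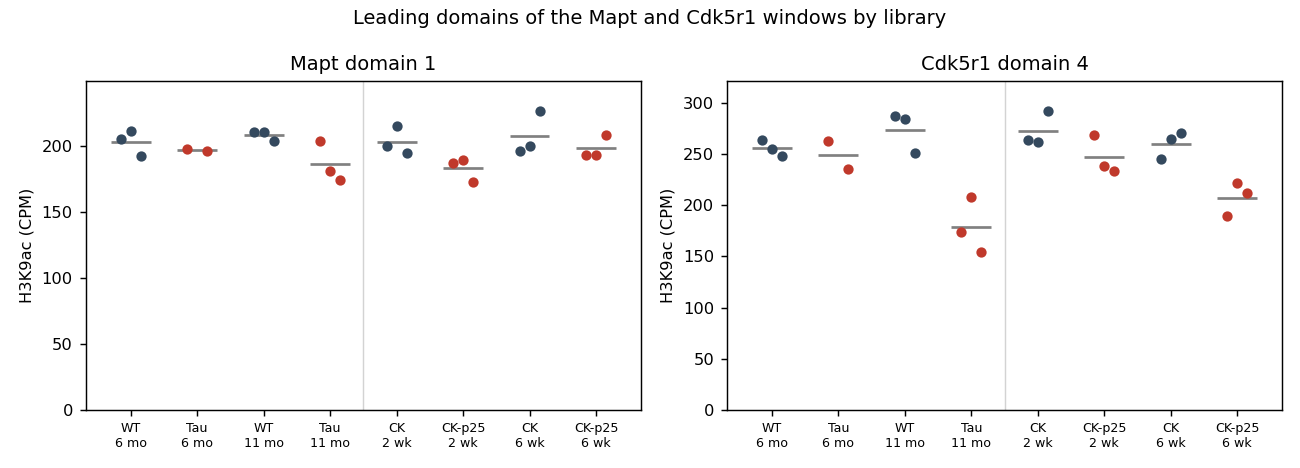
H3K9ac in CPM (vertical axis, from 0) of the strongest Mapt and Cdk5r1 domains in each library by group, with bars for group means and the tau series left of the line. Mapt domain 1 stays between 173 and 227 CPM in all 23 libraries, and Cdk5r1 domain 4 is lowest in Tau at 11 months and CK-p25 at 6 weeks.

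Counted over all 4 windows, 13 of 46 members were called in Tau mice of 11 months, 5 higher and 8 lower, where 12% of all domains were called. The count of higher members was also 5 and that of lower members 4 in the DESeq2 Wald test, 4 in a fit of the 11-month libraries alone and 5 with library totals in place of TMM. For those fits the share of all domains called is not given here. Of the 13, all 5 higher members lay at Prnp, and of the 8 lower ones 4 lay at Camk2a, 3 at Cdk5r1 and 1 at Mapt. A fit that left out the library labelled Tau 6 months replicate 1 gave 5 higher and 5 lower, where 11.6% of all domains were called, 4.43% higher and 7.15% lower. At 6 months it was 0 of 46. The tau effect differed between 11 and 6 months in 3 members, all with the lower value at 11 months, Camk2a domains 4 and 6 and Cdk5r1 domain 4, where 4.23% of all domains were called, 1.02% higher and 3.21% lower. With that library left out it differed in 1, Camk2a domain 6, where 2.15% were called, 0.392% higher and 1.76% lower. Of 38 members tested with CK-p25, 3 were lower at 2 weeks and 4 at 6 weeks, where 0.613% and 1.33% of all domains were called lower. None was higher, where 1.51% and 1.32% of all domains were. The tau and CK-p25 comparisons share no library, and the 2 tau comparisons share none either but have 1 estimate of the spread.

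**Figure D5:**
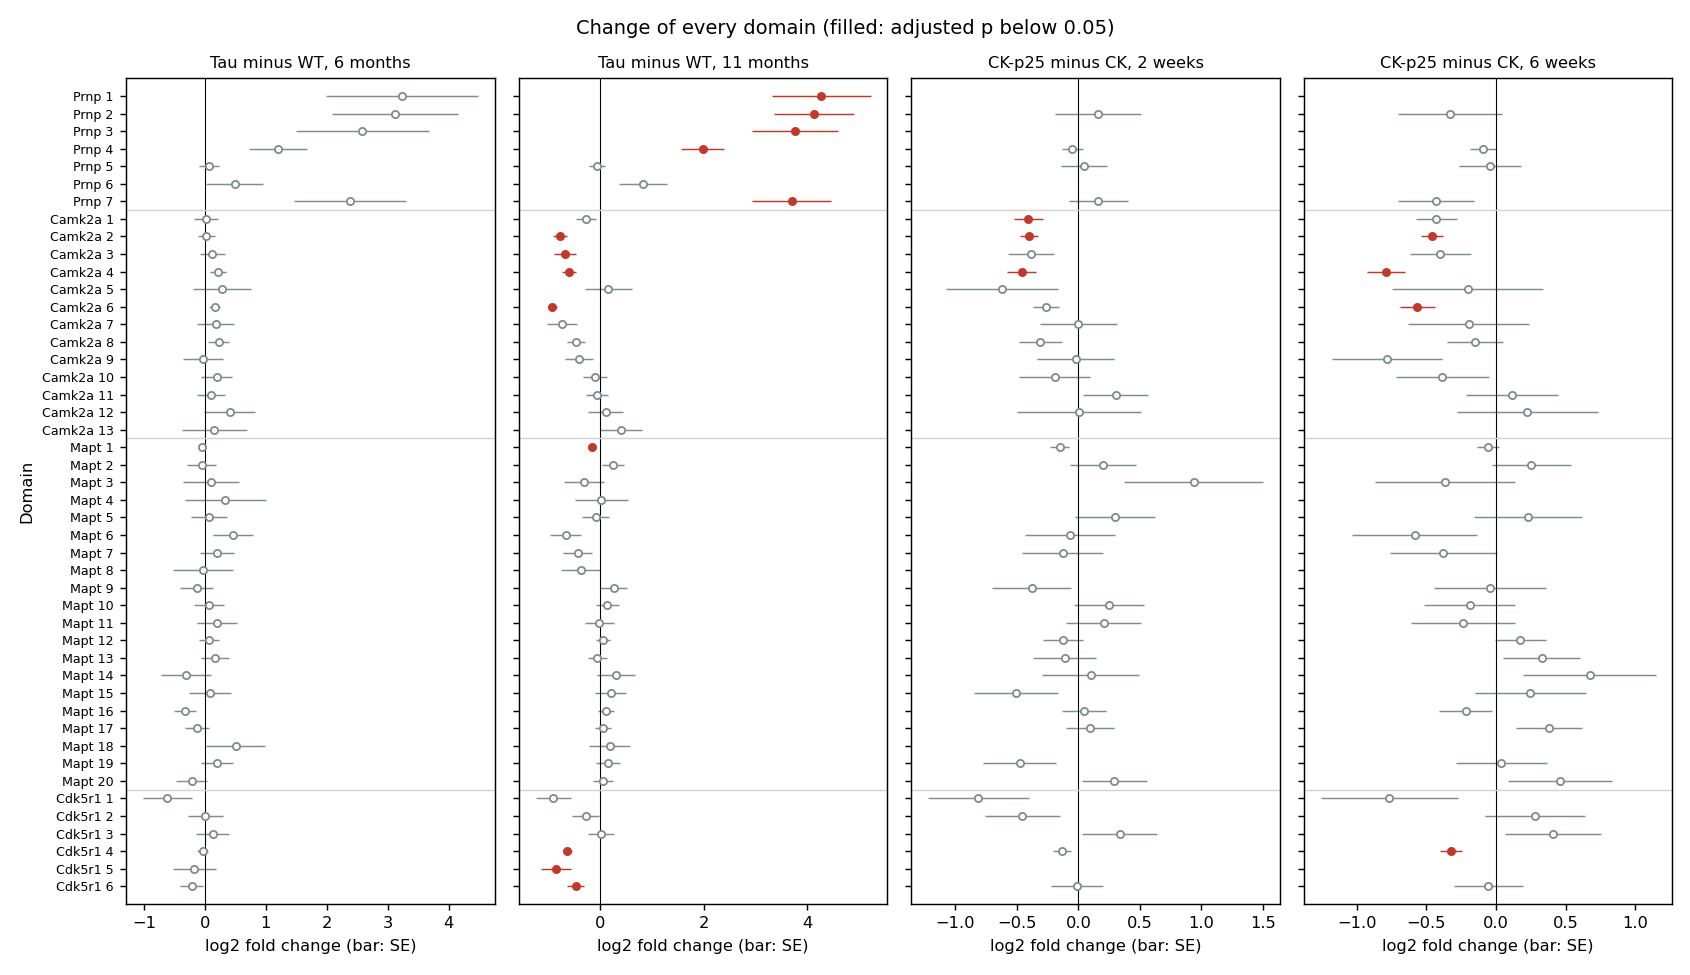
Log2 fold change (horizontal axis, bars 1 SE) of every tested member in 4 comparisons of a model with its control, ordered from top by window and position, filled points past an adjusted p of 0.05, each panel on its own scale. The Prnp domains reach 4.26 in Tau at 11 months, while in the other windows called domains lie below 0.

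The domains most alike in pattern to the strongest member of each window were sought among 18515 domains outside the windows and flanks, by Pearson's r of log2 CPM over the 23 libraries after each series' mean was taken out. Prnp domain 4 had no close match: the best were chr8:126286171-126287661 (r = 0.78), chr7:141687939-141691927 (0.76) and chr2:93300971-93303357 (0.75), with changes in Tau at 11 months of 0.58, 0.40 and 0.57 on the log2 scale beside its own 1.98. Camk2a domain 2 was matched by chr14:70856643-70862431 (r = 0.98), chr13:55583073-55589467 (0.97) and chr16:9989716-9996371 (0.97), which changed by -0.68, -0.75 and -0.92 in Tau at 11 months. Cdk5r1 domain 4 was matched by chr1:66514065-66516306 (r = 0.97), chr4:36895746-36900204 (0.96) and chr9:52483834-52488484 (0.95). Mapt domain 1 had r of 0.80, 0.79 and 0.79 with chr3:37621579-37623811, chr1:34806653-34808569 and chr1:136126466-136133065. These values are descriptions, since the libraries share groups, depth and scaling.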

How the data were processed

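H3K9ac was measured in 23 libraries of mouse hippocampus. The authors deposited raw read counts per domain for a common set of 44165 domains, per the series' design text, and the values are whole numbers with a different total in each library. Input DNA served in calling the domains, per the same text. BWA, Picard (version 1.1175), MACS2 and the mm9 build are named, per the submitters' processing notes, with no roles. The 22 input libraries were not used here. Of the 23 count columns, 0 had no matching sample. Coordinates are 1-based. Totals of 996369 to 6181925 reads in domains per library set the precision.

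From the counts, edgeR 4.0.16 in R 4.3.3 gave two-sided quasi-likelihood F tests (robust, TMM factors, filterByExpr by group), with Benjamini-Hochberg adjustment over all domains and a threshold of 0.05. Each series was fitted apart, with a mean per group (11 tau and 12 CK-p25 libraries), since antibody lots differed. SEs are the size of the log2 change over the square root of F. The fits were tested on simulated data. In each window the strongest member and those past the threshold in any comparison were named, at most 6 by adjusted p. Members and lists were chosen with earlier results of these data known. Gene lists and cell type markers were not analysed here, since they need an mm9 annotation. Alternatives were DESeq2 1.42.0 (test and size factors), library totals, no filter, a threshold of 0.01, a replicate block, a covariate, autosomes alone, windows extended by 25000 bases, the compared groups alone and each library left out. Leaving out the library labelled Tau 6 months replicate 1 from every tau comparison, leaving out both shallow 6-week libraries, and TMM over all 23 libraries were added after seeing the data.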

Additional observations from a re-analysis of the deposited data

Results flagged for a closer look

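The tau effect differed between 11 and 6 months in 3 members by edgeR's test of that difference (11-month effect minus 6-month effect), where 4.23% of all domains were called in either direction and 3.21% lower. In Camk2a domain 6 the difference was -1.08 on the log2 scale (SE 0.12, adjusted p = 3.18e-09), between a change of -0.92 at 11 months and 0.16 at 6 months. In Camk2a domain 4 it was -0.80 (SE 0.19, adjusted p = 0.00893), between -0.58 and 0.22. In Cdk5r1 domain 4 it was -0.59 (SE 0.12, adjusted p = 0.00527), between -0.62 and -0.04. Without the library labelled Tau 6 months replicate 1 the differences were -1.02 (adjusted p = 3.25e-06), -0.73 (0.11) and -0.50 (0.0593), so that 1 of the 3 was still called, where 2.15% of all domains were. Age and sex change together in this comparison and cannot be told apart, and the cross correlation of Tau libraries lay under that of wt at 11 months and not at 6 months.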

How the results depend on the processing

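At a threshold of 0.01, the members called were 4 in Tau at 11 months, 2 in the tau average and 1 in CK-p25 at 2 weeks. Whether the replicate numbers pair the libraries was not tested. Correlations of same-numbered deviations were -0.022 to 0.11 over all comparisons, and those of differently numbered ones -0.097 to 0.095. In Tau and wt at 11 months they were 0.046, 0.088 and 0.10 for the same number and -0.077 to -0.013 for different numbers. A replicate block gave 9 members in Tau at 11 months, 2 higher and 7 lower. Prnp domains 1, 3 and 4 then had edgeR adjusted p-values of 0.0609, 0.0865 and 0.0846. The block gave 5 members in the difference between ages, and 3 and 4 in CK-p25 at 2 and 6 weeks. With cross correlation as a covariate, 1 member was called in each of Tau at 11 months, the tau average and the tau difference, and in Tau at 11 months Mapt domain 1 moved to 0.034 and Cdk5r1 domain 6 to 0.013. The DESeq2 Wald test called 1 member in CK-p25 at 2 weeks. With flanks of 500000 bases, the Mapt window against its flanks changed by 0.12 on the log2 scale in CK-p25 at 6 weeks, beside 0.04. The causes of these moves were not tested. Under these settings the share of all domains called is not given here, so the counts are no result about the members.

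Leaving out 1 library at a time gave 4 to 12 members in Tau at 11 months (4 without wt replicate 1, 5 without Tau replicate 3 or wt replicate 2, 6 without wt replicate 3), 0 to 5 in Tau at 6 months (5 without the library labelled Tau replicate 1), 2 to 7 in the tau average, 1 to 8 in the tau difference (1 and 8 without the libraries labelled Tau 6 months replicate 1 and 2), 1 to 3 in CK-p25 at 2 weeks (1 without CK replicate 2 or CK-p25 replicate 3) and 2 to 4 at 6 weeks (2 without CK-p25 replicate 1). The tau average gave 2 or 3 without Tau replicate 3 or any wt replicate of 11 months, or any wt replicate of 6 months. For most of these fits the share of all domains called is not given here, so the counts are no result about the members. The members called in Tau at 6 months without replicate 1 were the Prnp domains at which that library stood apart, so these calls follow from leaving it out. In Tau at 6 months, the log2 change of the Prnp window against its flanks ran from -0.069 to 2.11 and that of Cdk5r1 from -0.12 to 0.017. Changes that turned sign at 6 months ran from -1.56 to 4.25 in Prnp domain 1, -0.18 to 3.52 in domain 3, -0.053 to 1.88 in domain 4 and -0.37 to 3.30 in domain 7, each lowest without the library labelled Tau replicate 2 and highest without replicate 1. Those of Cdk5r1 domain 4 ran from -0.11 to 0.036 and those of Camk2a domain 2 from -0.062 to 0.096, with -0.012 without Tau replicate 1. Prnp domain 4 ran from -0.12 to 0.020 in CK-p25 at 2 weeks and from -0.20 to 0.013 at 6 weeks, highest without CK replicate 2 in both. Of the single-domain changes under all alternatives, 448 kept direction and side of the threshold, 104 lost the call, 5 gained it and 11 turned sign.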
